A study of Mus musculus with 2 samples.

Results

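The genes described here are 10 cytokines, receptors and a receptor antagonist of the interleukin-6, interleukin-1, colony-stimulating factor and thymic stromal lymphopoietin systems: Il6, Lif, Il11, Il6st, Il33, Il1rl1, Il1r1, Il1rn, Csf1 and Tslp. They were chosen by name, with earlier results of these data known. Each was represented by the transcript cluster, the array's unit for 1 gene, that carried its symbol alone. Of the 10 genes 9 had such a cluster, 1 each, among 30142 named genes and 65956 transcript clusters in all. Il1rl1, the receptor for interleukin-33, had none and was not analysed here.

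The cells were adipose-derived stromal cells, fibroblast-like progenitors grown from inguinal fat of C57BL/6J mice 6 to 10 weeks old. Total RNA came from 1 Wisp1 KO sample and 1 WT sample, each on 1 array. In the knockout, exons 1 to 5 of Wisp1, on chromosome 15, had been floxed and removed by mating with a Cre-neo mouse, which gave a global deletion in the offspring. Wisp1 (Ccn4) encodes a secreted matricellular protein, and the study's title concerns its effect on cartilage differentiation in heterotopic ossification, in which bone forms outside the skeleton. Both cultures were kept in DMEM with 15% serum. The labels do not say how many mice gave the cells, which promoter drove Cre, or whether the WT mice were littermates.

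All values are log2 expression values as deposited, and every difference is knockout minus wild type on that scale. With 1 array per genotype there is no replicate spread and no test, so each difference compares these 2 arrays and not the genotypes. In bulk RNA, fewer cells of a type and less RNA per cell cannot be told apart. Levels of different genes come from different probes and are not set against each other. A gene is called dim when its mean over both arrays lay under 4.65, the median of named genes. Wisp1 itself was at 5.40 in the knockout array, against 7.79 in the wild-type array, which is 5.25-fold lower. Of 10 stromal markers 8 were measured and all 8 were higher in the knockout array, where 47.0% of all named genes were higher. The median difference was 0.37, beside 0 over all named genes. Over the 7 markers that were not dim it was 0.32, beside 0.03 over all named genes that were not dim, of which 56.9% were higher. Differences ran from 0.08 (Cd34), 0.09 (Thy1) and 0.11 (Pdgfrb) up to 0.60 (Lum). Levels of the 8 markers ran from 4.03 to 11.90 in the knockout and from 3.55 to 11.40 in wild type, the dimmest being Fap. Pdgfra and Ly6a had no cluster of their own.

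Interleukin-6, LIF and interleukin-11 are secreted ligands that signal through a shared receptor chain, gp130, the product of Il6st, to JAK kinases and the transcription factor STAT3, with SOCS proteins as feedback inhibitors. The interleukin-1 family signals through receptors such as IL-1R1 to the adaptor MyD88 and to NF-kB, and the product of Il1rn occupies IL-1R1 without starting a signal. Stromal cells of fat are known as a source of interleukin-6, interleukin-33 and CSF1, by which they act on macrophages and on lymphoid cells.

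The genes of the set did not move as a group. In the knockout array Il1rn, Il33 and Il6st were higher, Tslp and to a lesser degree Csf1 were lower, and the ligand genes Il6, Lif and Il11 were within 0.15 of wild type. Of the 9 measured genes 5 were higher and 4 lower, beside 47.0% and 47.4% of all named genes. The median difference was 0.06, and Tslp was the 1 dim gene. Over the 8 that were not dim the median was 0.19, beside 0.03 over all 15072 named genes that were not dim. A difference of at least 1.5-fold was seen among these 8 in Il1rn alone, as higher, and no gene of the set reached 2-fold. Of the named genes that were not dim, 0.717% passed 1.5-fold upward and 0.464% downward, and 0.0663% passed 2-fold upward and 0.0995% downward. At a smaller size of at least 0.322 on the log2 scale, 3 of the 8 were higher (Il1rn, Il33 and Il6st) and 1 lower (Csf1), beside 3.89% and 2.64% of the named genes that were not dim. With each array centred on its median these became 4 higher, Il1r1 included, and 0 lower.

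**Figure D1:**
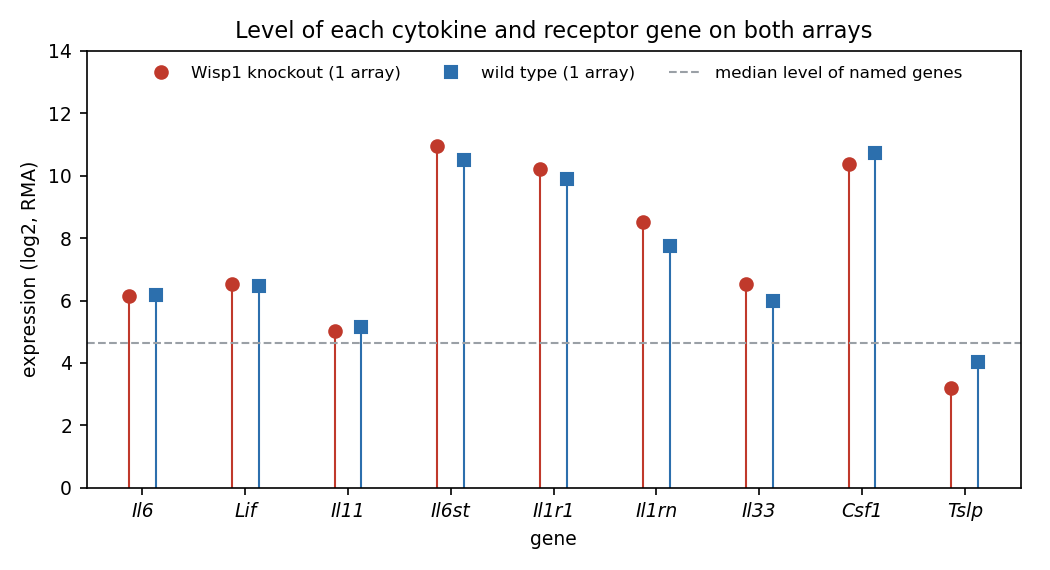
Expression (log2, vertical axis) of the 9 measured genes on the Wisp1 knockout array (red circles) and the wild-type array (blue squares), 1 array each, with the median level of named genes as a dashed line. Il1rn, Il33 and Il6st stand higher in the knockout, Csf1 and Tslp lower, and Il6, Lif and Il11 nearly level. Heights of different genes are not comparable.

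The ligands of the gp130 receptors differed least. Il6, the inflammatory cytokine that gives the family its name, was at 6.16 in both the knockout and the wild-type array, a difference of -0.0050 whose sign was positive (0.010) when each array was centred on its median. Lif, which encodes leukemia inhibitory factor, was at 6.52 in the knockout array and 6.46 in the wild-type array (0.06). Il11, a ligand associated with fibroblast activation and with bone cells, was at 5.02 in the knockout array and 5.16 in the wild-type array (-0.14). Differences at least as far from 0 were found in 94.8% of named genes of like level for Il6, in 66.2% for Lif and in 30.9% for Il11, where genes of like level are those in the same of 20 equal bins of mean expression. All 3 ligands thus sat inside the bulk of genes of their level.

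Il6st, which encodes the gp130 chain that those ligands share, was at 10.95 in the knockout array, against 10.49 in the wild-type array. The difference of 0.46 is 1.37-fold, and 272 of the named genes had a larger positive one. Among 1508 genes of like level 1.99% were at least as far from 0, and the central 95% of their differences ran from -0.33 to 0.39. Il6st therefore lay above that range while its ligands did not.

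The rest of the gp130 system was measured in part. Of 12 ligand genes of the family 10 were measured, 6 higher, 3 lower and Il31 with the same value on both arrays. Over all named genes 47.0% were higher and 47.4% lower. The 6 ligand genes that were not dim had a median difference of 0.02, beside 0.03 over all named genes that were not dim. The ligand median turned to -0.04 under quantile normalization and to -0.01 under loess centring. The ligand genes with the largest differences were dim ones, Ebi3 (4.27 in the knockout array, 4.05 in wild type, 0.22) and Ctf2 (3.54 and 3.71, -0.16). Of 8 receptor genes 7 were measured, 5 higher, 1 lower and Il31ra with the same value on both arrays. The 6 that were not dim were 5 higher and 1 lower, beside 56.9% and 39.9% of the named genes that were not dim. Their median difference was 0.14, beside 0.03 over all named genes that were not dim. Lifr, the LIF receptor chain that pairs with gp130, was at 7.57 in the knockout array and 7.32 in the wild-type array (0.25). Osmr, the oncostatin M receptor chain, was at 9.80 in the knockout array and 9.66 in the wild-type array (0.14). Il6ra, the chain that binds interleukin-6 itself, was the lower one, at 5.52 in the knockout array and 5.66 in the wild-type array (-0.13).

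Downstream of gp130, 11 of 15 measured genes of JAK-STAT3 signalling and feedback were higher and 4 lower. Their median difference was 0.12, and of all named genes that were not dim 56.9% were higher and 39.9% lower. None reached 1.5-fold. The feedback inhibitor gene Socs2 was at 6.15 in the knockout array and 5.66 in the wild-type array (0.49), and Pim1, a kinase gene induced by STAT factors, was at 7.47 in the knockout array and 6.98 in the wild-type array (0.49). Socs3, the inhibitor that binds gp130, was at 6.71 in the knockout array and 6.39 in the wild-type array (0.32). Bcl3, named after its value was seen, was at 7.67 in the knockout array and 7.21 in the wild-type array (0.46). Stat3 itself was at 8.54 in the knockout array and 8.51 in the wild-type array, a difference of 0.03. Others of the list, likewise named after their values were seen, went either way, with Jak2 at 0.28, Jak1 at 0.21 and Ptpn11 at -0.24, while the inhibitor genes Socs1 (0.11) and Cish (-0.08) differed less.

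**Figure D2:**
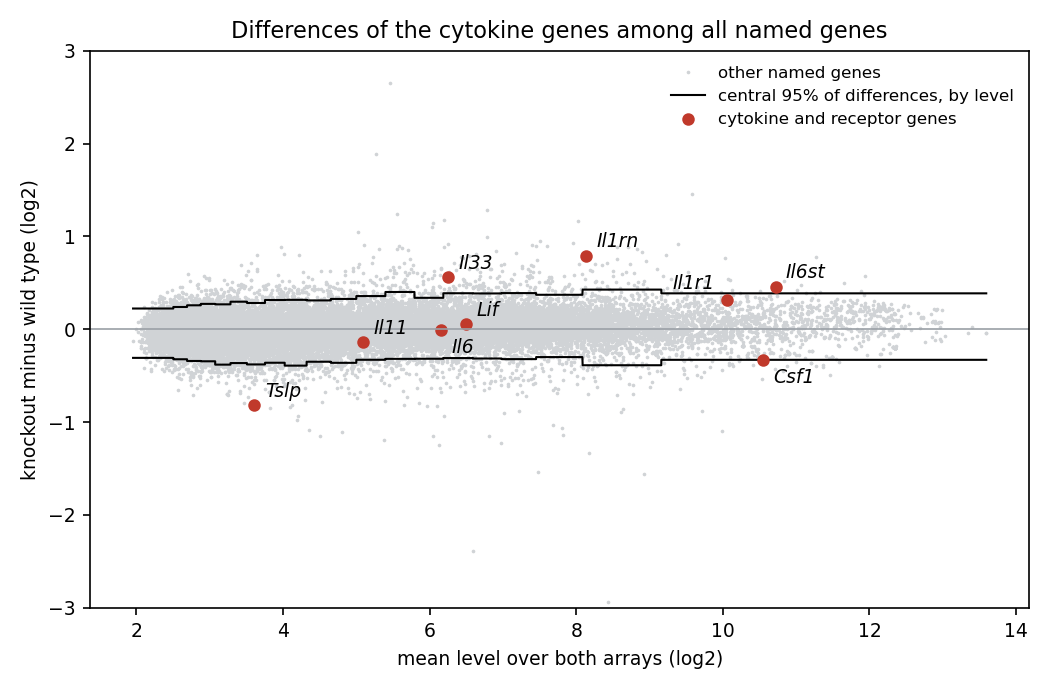
Difference between knockout and wild type (log2, vertical axis) against the mean level over both arrays (log2, horizontal axis) for 30142 named genes, with the 9 measured genes in red. Black lines bound the central 95% of differences in each of 20 level bins. Il1rn, Il33 and Il6st lie above the upper line, Tslp lies far under the lower one, and Csf1 sits on it.

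In the interleukin-1 family the antagonist differed most. Il1rn, which encodes the interleukin-1 receptor antagonist, was at 8.53 in the knockout array, against 7.74 in the wild-type array. The difference of 0.79 is 1.73-fold, and 38 of the 30142 named genes had a larger positive one. Among 1507 genes of like level 11, Il1rn included, were at least as far from 0 (0.73%).

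Il33, which encodes a nuclear cytokine released from damaged stromal cells, was at 6.53 in the knockout array, against 5.97 in the wild-type array. The difference of 0.56 is 1.48-fold and so just under the 1.5-fold line. It was exceeded upward by 138 named genes, and 1.26% of genes of like level were at least as far from 0. The ligands that compete with the antagonist gave no such signal: Il1a was dim at 2.69 in the knockout array and 2.77 in the wild-type array (-0.08), and Il1b was dim at 2.90 in the knockout array and 3.10 in the wild-type array (-0.20). Over the 10 measured ligand and antagonist genes 4 were higher and 6 lower, beside 47.0% and 47.4% of all named genes. Of the 10, 7 were dim, which left Il1rn and Il33 as the higher ones that were not dim.

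Il1r1, the signalling receptor of interleukin-1, was at 10.22 in the knockout array, against 9.90 in the wild-type array. The difference was 0.317, or 24.6% higher on the linear scale, and 7.43% of genes of like level were at least as far from 0, so it lay inside their central 95%. Il1r2, the decoy receptor, was at 5.42 in the knockout array and 5.07 in the wild-type array (0.35). Il1rl2, the receptor for interleukin-36, named after its value was seen, was at 8.32 in the knockout array and 8.02 in the wild-type array (0.30). In the RefSeq gene table Il1r2, Il1r1 and Il1rl2 follow each other on chromosome 1. All 3 were higher, and all 3 lay inside the central 95% of genes of like level. Il1rl1, next in order, was not measured. Farther along the same cluster Il18r1 (3.03 in the knockout array, 3.07 in wild type) and Il18rap (3.37 and 3.69, -0.32) were dim and not higher. Il1rap, the coreceptor of IL-1R1 that lies elsewhere, was at 5.03 in the knockout array and 5.16 in the wild-type array (-0.13).

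The adaptors, kinases and NF-kB subunits downstream of these receptors differed little. Of 20 measured genes 19 were not dim, and of these 12 were higher and 7 lower, with a median difference of 0.05 and none past 1.5-fold. Of all named genes that were not dim 56.9% were higher and 39.9% lower. The largest differences were in Irak3, an inhibitory kinase of the pathway (7.60 in the knockout array, 7.41 in wild type, 0.20), and Traf6, its ubiquitin ligase (5.55 and 5.37, 0.18). Nfkbia, the NF-kB inhibitor that is itself a target of the factor, was at 6.85 in the knockout array and 6.93 in the wild-type array (-0.08). The pathway list therefore stayed close to the 0.03 of all named genes that were not dim.

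**Figure D3:**
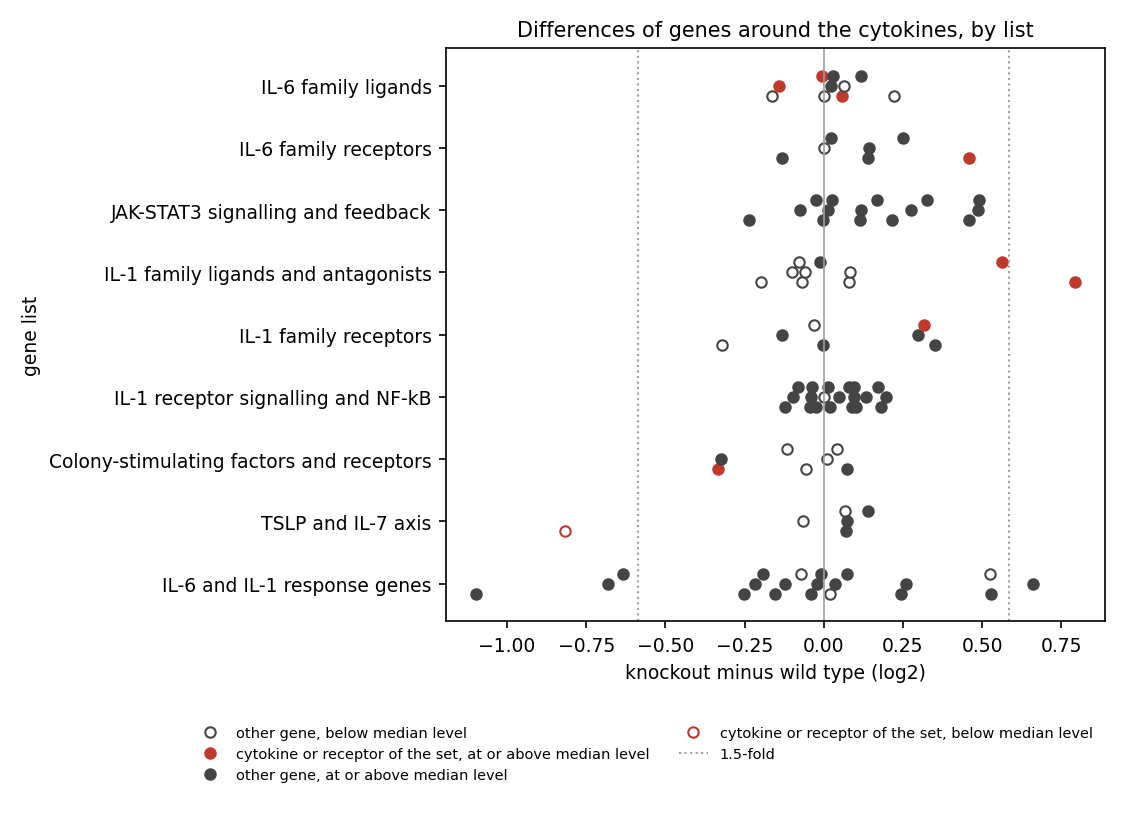
Difference between knockout and wild type (log2, horizontal axis) for each measured gene of 9 gene lists, 1 point a gene, with the cytokines and receptors of the set in red, other genes in black, and dim genes as open circles. Dotted lines mark 1.5-fold. Red points range from Tslp (-0.82) to Il1rn (0.79), with Il6, Lif and Il11 near 0. The lowest point is Ptgs2 (-1.10), which is not of the set. NF-kB pathway genes crowd around 0.

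Genes listed from general knowledge as answering to interleukin-6 or interleukin-1 in fibroblasts went both ways. Whether these cells raise them in answer to either cytokine was not tested. Of 20 such genes 17 were not dim, of which 6 were higher and 11 lower, and the median difference was -0.04, where 56.9% of all named genes that were not dim were higher and 39.9% lower. A 1.5-fold difference was passed downward by 3 of the 17 and upward by 1, beside 0.464% and 0.717% of the named genes that were not dim. Those at least 1.5-fold lower were Ptgs2, the inducible prostaglandin synthase (9.43 in the knockout array, 10.53 in wild type, -1.10), Mmp3, the matrix protease stromelysin (7.39 and 8.08, -0.68), and Lcn2, which encodes lipocalin 2 (4.56 and 5.20, -0.63). The gene at least 1.5-fold higher was Fgl2, which encodes a fibrinogen-like protein (5.28 in the knockout array, 4.62 in wild type, 0.66). Il4ra, named after its value was seen, encodes the interleukin-4 receptor and was at 10.37 in the knockout array and 9.84 in the wild-type array (0.53). Of the 9 lists this one held the widest spread of differences, with no shared direction.

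Csf1, the growth factor that macrophages need, was at 10.38 in the knockout array, against 10.71 in the wild-type array. The difference of -0.33 is 1.26-fold lower, and 810 of the named genes had a more negative one. It lay at the edge of the central 95% of genes of like level, whose lower bound was -0.33, and 6.30% of them were at least as far from 0. Il34, the other ligand of the same receptor, was lower as well, at 5.15 in the knockout array and 5.47 in the wild-type array (-0.33). Csf1r, that receptor and a macrophage marker, was dim at 4.62 in the knockout array and 4.61 in the wild-type array (0.01). Of 7 measured genes of colony-stimulating factors and their receptors 3 were higher and 4 lower, beside 47.0% and 47.4% of all named genes.

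Tslp, an epithelial and stromal cytokine that acts on dendritic cells and lymphocytes, was at 3.20 in the knockout array, against 4.02 in the wild-type array. The difference of -0.82 is 1.76-fold lower, and it was the farthest from 0 among the 1507 genes of like level. Only 30 of the 30142 named genes had a more negative difference. Both levels lie under the median of named genes, and how far they stood above background was not tested. Without the filter on dim genes Tslp counts as 1 gene at least 1.5-fold lower, a fold that 0.352% of all named genes reached downward. Its receptor chain gene Crlf2 was at 6.94 in the knockout array and 6.87 in the wild-type array (0.07), and Il7r, the partner chain, was dim at 3.15 in the knockout array and 3.08 in the wild-type array (0.07). Stat5a, a transcription factor gene of this axis, was at 6.96 in the knockout array and 6.82 in the wild-type array (0.14).

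Set against genes of like level, 3 of the 9 genes lay above the central 95% (Il1rn, Il33 and Il6st) and 2 under it (Csf1, by a small margin, and Tslp). By construction about 5.03% of named genes lie outside that range, 2.51% above it and 2.52% under it. Because the genes were chosen with earlier results of these data known, these counts describe the set and are not a test of it. The remaining 4 genes, Il6, Lif, Il11 and Il1r1, lay inside.

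Macrophages also express Il1rn, and some of their markers were higher in the knockout array. Of 13 macrophage markers 10 were higher and 3 lower, with a median difference of 0.21, where 47.0% of all named genes were higher. Of the 7 that were not dim 6 were higher and 1 lower, with a median difference of 0.51, beside 0.03 over all named genes that were not dim. The central 95% of genes of like level held 8 of the 13. The other 5, Lyz2, Fcer1g, Cd68 (0.58), Tyrobp (0.51) and the dim Ctss (0.63), lay above it. Levels of the 13 ran from 3.25 to 7.43 in the knockout and from 3.33 to 6.14 in wild type. The summed linear level of the 13 was 567 in the knockout array and 377 in the wild-type array, or 395 and 307 without Lyz2. Lyz2, the lysozyme gene (7.43 in the knockout array, 6.14 in wild type, 1.29), and Fcer1g, an Fc receptor chain gene (6.02 and 5.13, 0.90), had the largest differences, while the defining genes Csf1r and Adgre1 (3.25 and 3.33, -0.08) were dim on both arrays. The part of macrophage RNA in the Il1rn difference was not tested. Markers of T and innate lymphoid cells (7 measured) and of mast cells and basophils (7 measured) were dim without exception, with median differences of 0 and 0.01. The 0 is the difference of Ptprc, which had the same value on both arrays (2.86). All these markers lay inside the central 95% of genes of like level. Endothelial markers had a median difference of 0.07 over 6 genes, 4 of them higher. Those with the largest differences, Cdh5 (4.62 in the knockout array, 3.81 in wild type, 0.80) and Emcn (4.04 and 3.24, 0.80), were dim. Both lay above the central 95% of genes of like level, and the other endothelial markers lay inside it. Larger positive differences were found in 35 named genes for Cdh5 and in 37 for Emcn. Markers of mesothelial and epithelial cells, which are also known to make Tslp and Il33, had a median difference of -0.02 over 8 genes, 4 higher and 4 lower. Of these Krt18 (-0.35), which was dim, lay under the central 95% of genes of like level and the others inside it. Adipocyte markers had a median difference of -0.12 over 6 genes, 2 higher and 4 lower. Those with the largest differences, the hormone genes Retn (3.81 in the knockout array, 4.90 in wild type, -1.08) and Adipoq (3.86 and 4.50, -0.64), were dim. Both lay under the central 95% of genes of like level, with the other adipocyte markers inside it. Of the stromal markers, Lum, Col1a1, Col3a1 and Fap lay above that range, and Pdgfrb, Thy1, Cd34 and Dcn inside it.

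**Figure D4:**
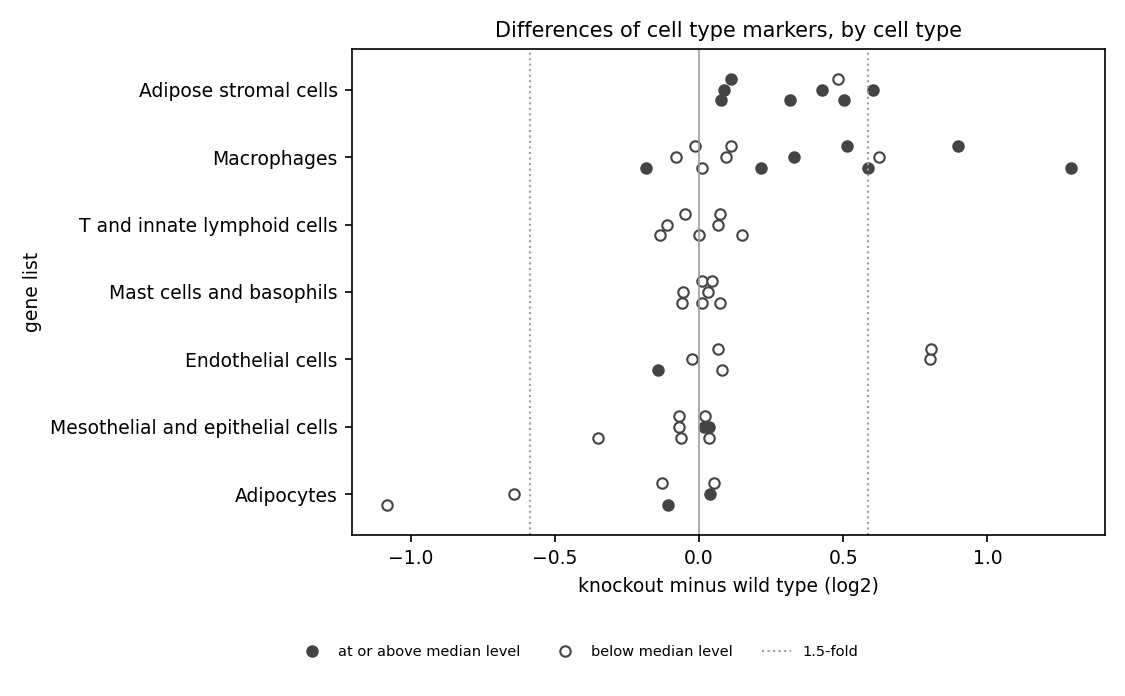
Difference between knockout and wild type (log2, horizontal axis) for each measured marker of 7 cell types, 1 point a gene, filled when not dim and open when dim. Dotted lines mark 1.5-fold. Stromal and most macrophage markers lie to the right of 0, and lymphoid and mast cell markers are open circles near 0.

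Promoters were read for the genes that contrast in these data: Il6, level between the arrays, Csf1, lower, and Il1rn and Il33, higher. Each line gives the 250 bases before a RefSeq transcript start, in GRCm38.p6, 5′ to 3′ on the gene's strand. Il1rn and Il33 have other starts as well. For both genes the window shown is the only one with a match to the letters listed below. Il6 is at chr5:30012864-30013113 on the plus strand, Csf1 at chr3:107760470-107760719 on the minus strand, Il1rn at chr2:24336610-24336859 on the plus strand and Il33 at chr19:29945540-29945789 on the plus strand. Capitals mark matches on either strand to GGANTTTCC (NF-kB), TTCNNNGAA (STAT), TGANTCA (AP-1) or TTGCNNAA (C/EBP).
Il6: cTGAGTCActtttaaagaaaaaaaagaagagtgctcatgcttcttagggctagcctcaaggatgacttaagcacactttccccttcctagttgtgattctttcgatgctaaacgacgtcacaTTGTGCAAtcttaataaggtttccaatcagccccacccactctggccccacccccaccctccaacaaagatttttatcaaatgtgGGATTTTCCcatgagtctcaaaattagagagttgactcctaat
Csf1: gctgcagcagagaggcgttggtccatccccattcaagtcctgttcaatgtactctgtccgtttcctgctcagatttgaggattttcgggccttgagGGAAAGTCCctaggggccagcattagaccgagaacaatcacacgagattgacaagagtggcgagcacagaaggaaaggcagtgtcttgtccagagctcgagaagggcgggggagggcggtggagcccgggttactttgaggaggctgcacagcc
Il1rn: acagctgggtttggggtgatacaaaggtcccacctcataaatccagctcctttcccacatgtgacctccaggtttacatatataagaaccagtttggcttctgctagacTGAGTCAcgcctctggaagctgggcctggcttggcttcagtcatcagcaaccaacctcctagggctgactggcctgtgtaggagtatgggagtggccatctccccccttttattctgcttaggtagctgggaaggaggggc
Il33: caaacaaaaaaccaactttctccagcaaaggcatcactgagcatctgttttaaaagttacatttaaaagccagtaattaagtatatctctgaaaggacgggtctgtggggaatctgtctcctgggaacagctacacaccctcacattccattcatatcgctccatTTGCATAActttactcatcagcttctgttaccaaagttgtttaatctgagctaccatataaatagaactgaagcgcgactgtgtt

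The Il6 window held an AP-1, a C/EBP and an NF-kB match, none overlapping, and the Csf1 window held an NF-kB match. The NF-kB letters were found in 1.07% of 32851 promoter windows of the same length and in 2 of the 13 windows read for 8 genes of the set, those of Il6 and Csf1. The AP-1 letters, present in 6.75% of all windows, were in 4 of the 13, 1 each of Il6, Il11, Lif and Il1rn. The C/EBP letters, present in 9.56%, were in 3 of the 13, 1 each of Il6, Il33 and Il1r1. None of the 13 held the STAT letters, which 7.02% of all windows held. The other genes with a window, namely Il1rn, Il33, Il6st, Il1r1, Lif and Il11, held no NF-kB letters, as was so for most windows of all genes. Whether the letters go with the differences was not tested. A match describes letters and is not a binding site.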

How the data were processed

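Total RNA of 1 Wisp1 KO and 1 WT sample was biotin-labelled (Affymetrix GeneChip WT PLUS), per the labels' protocols. The deposited values are log2 expression levels of transcript clusters, and the authors obtained them with RMA, which corrects background, normalizes the arrays together and summarises probes, in Partek, per the submitters' processing notes. Versions, genome build and the list of arrays normalized together are not given in the sources used here. RMA makes array distributions alike, which hides any shift common to most genes, and differences of dim genes come out too small. The number of arrays limits the precision.

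Clusters with 1 platform symbol (30604) were named, 827 of them renamed by Entrez ID through the RefSeq gene table of GRCm38.p6, and clusters with several (2146) or no symbol (33206) were left out. The cluster with the highest mean stood for a gene. Rows with identical values on both arrays, 2938 in all, count as neither higher nor lower. List genes under an older symbol were matched by RefSeq synonym. Where a gene had no row of its own it was not analysed here. Named in the text are, by rule, all genes of the set, Wisp1, direct partners, and in each list the genes past 1.5-fold that were not dim and those with the 2 largest differences. Cell type markers were named for their summary. The genes of the set and the lists were chosen with earlier results of these data known, and the motifs with the present values known. With 2 arrays no likeness of pattern between genes can be measured. Promoter sequences came from RefSeq (GRCm38.p6), and Tslp's was not read. Simulated data with added differences were used to check the arithmetic only, which says nothing about spread between replicates. Alternatives were other scalings (loess span 0.3), filters, fold sizes, cluster choices and list means. Loess came from statsmodels 0.14.6 and figures from matplotlib 3.10.9, with pandas 2.3.3 and numpy 2.4.6 under Python 3.11.15.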

Additional observations from a re-analysis of the deposited data

How the results depend on the processing

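No replicate could be left out, and no paired analysis was possible because each genotype has 1 array. Over 5 alternatives (median centring, quantile normalization, loess centring, mean over clusters, clusters with several symbols kept) all 45 differences of the 9 genes stayed within 0.1 of the reported value, and 1 changed sign, that of Il6 (-0.04 to 0.01). Many of the 45 had little room to move. Each gene had 1 cluster, so the mean over clusters could not differ, and keeping clusters with several symbols left every value unchanged. Median centring adds the same 0.015 to every difference. Only quantile normalization and loess centring could move the genes unequally. Il1rn ran from 0.75 to 0.81, Il33 from 0.52 to 0.58, Il6st from 0.42 to 0.47, Csf1 from -0.38 to -0.32 and Tslp from -0.82 to -0.79. The count of genes of the set past the fold did change: at the smaller fold size (0.322 on the log2 scale) 3 were higher and 1 lower, or 4 and 0 with median centring as well (a setting chosen after seeing the data), at 2-fold 0 were higher and 0 lower, and with no filter on dim genes 1 was lower at 1.5-fold, when 106 named genes were. With no filter the median of interleukin-1 ligands and antagonists was -0.035, against 0.56 over the 3 that were not dim, that of interleukin-1 receptors -0.0038, against 0.30 over 5, and that of colony-stimulating factors and receptors -0.057, against -0.33 over 3, because dim genes then enter. Their means over genes that were not dim were 0.45, 0.17 and -0.20. Dim genes such as Tslp are the least certain, since signal over background was not in the table used. A gene that was not dim is not thereby shown to be expressed. Wisp1, with exons 1 to 5 removed, still read 5.40 in the knockout array, above the 4.65 line.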
